A study of Mus musculus with 4 samples.

Results

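Matricellular proteins are secreted into the extracellular matrix, where they act less as building blocks than as regulators of how cells attach, migrate and respond to growth factors. Many of them bind integrins and other surface receptors, and in fibroblasts they are known as genes of wound repair, tissue remodelling and mechanical tension. The genes described here are Postn (periostin), Tnc (tenascin C), Sparc (osteonectin), Sparcl1 (hevin), Thbs1 and Thbs2 (thrombospondins), Spp1 (osteopontin), Ctgf and Cyr61 (the CCN proteins now called Ccn2 and Ccn1) and Srpx2 (a secreted sushi-repeat protein). They were chosen by name, as every non-control probe that carries one of these symbols, which gave 13 probes for 10 genes among 39429 probes and 31829 gene names.

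The RNA came from mouse embryonic fibroblasts (MEFs) of the C57BL/6J strain, taken while the cultures grew logarithmically and otherwise untreated. There were 4 single-colour Agilent arrays with 1 array per label: MEFs without cyclin G2 (CycG2-/-, labelled G2KO), a wild type for that comparison (CycG2+/+), MEFs without cyclins G1 and G2 (CycG1-/-CycG2-/-, DKO) and a wild type for those (CycG1+/+CycG2+/+). Each value is therefore 1 culture, so no p-value could be computed, and neither the number of embryos nor their age or sex was given by the labels. A level below is the signal of a probe divided by the 75th percentile of the signals of its array, so that a level of 1 is that percentile. Levels were compared between arrays for the same probe and not between probes.

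The arrays lay on 1 slide, had no saturated spot, and had 64.96% to 72.19% of probes well above background. Spots of the same probe differed by a median SD of 0.0752 to 0.122 on the log2 scale. That measures spot error within an array and not the difference between cultures. For the latter only the comparison of the WT arrays was available, in which log2 ratios of probes above background on both had an SD of 1.03. On the DKO array Ccng1, the gene of cyclin G1, was not well above background and lay at least 228-fold below its WT. Its level was 1.98 on the array labelled G2KO, 9.445 on the array labelled WT and 1.66 on the WT array of DKO. Ccng1 thus also differed 4.78-fold within the pair labelled G2KO and WT and 5.68-fold between the WT arrays. Ccng2 had a level of 0.091 on the array labelled G2KO, 0.104 on the array labelled WT, 0.0619 on the DKO array and 0.0806 on the WT array of DKO, so its probe did not separate the labels; whether it lies in the deleted part was not established here. The array labelled G2KO differed less from the WT array of DKO (SD 0.57) than the array labelled WT did (SD 1.03). The paper ascribes the higher Xist of its G2KO MEFs to their female origin. It also lists Sox2 as higher and Sparcl1 and Pdgfra as lower in them. Here the levels under the labels WT and G2KO were 1.13 and 0.0018 for Xist, 2.37 and 0.002 for Sox2, and 0.0022 and 1.75 for Pdgfra. By the labels these genes and Sparcl1 run opposite to that list, and with exchanged labels they run with it. Whether the labels of this pair were exchanged could not be settled from the Ccng2 probe and was not tested otherwise. The pair is called by its labels throughout; with exchanged labels every ratio between its arrays would change sign, and the array labelled G2KO would be the wild type to set beside the WT array of DKO.

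Upstream sequences are shown for 3 of the genes, as GRCm38.p6 windows from RefSeq of 250 bases before the annotated start, read 5′ to 3′ on the strand of the gene. Cyr61 is shown from the genes whose level hardly moved, and Srpx2 and Postn from those whose level differed over 4-fold between arrays. Cyr61 and Srpx2 were the only genes with a match to the motifs below, so they do not represent their groups. Postn, Tnc and Spp1 had windows at different annotated starts, and a single Postn window is shown. Windows were found for 7 of the 10 genes (none for Ctgf, Sparcl1 and Thbs1), and they were searched on both strands for the TEAD motif GGAATG, the AP-1 motif TGANTCA and the CArG box. Capitals mark a match.

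Cyr61, chr3:145649986-145650235, minus strand: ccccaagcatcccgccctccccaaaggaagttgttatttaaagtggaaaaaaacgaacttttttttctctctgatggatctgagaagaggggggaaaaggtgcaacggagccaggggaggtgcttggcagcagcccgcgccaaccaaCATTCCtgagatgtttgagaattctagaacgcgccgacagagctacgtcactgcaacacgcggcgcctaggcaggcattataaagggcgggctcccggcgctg
Srpx2, chrX:133908175-133908424, plus strand: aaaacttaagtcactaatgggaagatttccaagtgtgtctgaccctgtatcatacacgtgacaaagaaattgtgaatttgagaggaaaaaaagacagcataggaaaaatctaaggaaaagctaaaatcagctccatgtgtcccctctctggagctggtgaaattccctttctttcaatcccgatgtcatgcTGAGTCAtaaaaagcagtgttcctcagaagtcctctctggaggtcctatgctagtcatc
Postn, chr3:54360857-54361106, plus strand: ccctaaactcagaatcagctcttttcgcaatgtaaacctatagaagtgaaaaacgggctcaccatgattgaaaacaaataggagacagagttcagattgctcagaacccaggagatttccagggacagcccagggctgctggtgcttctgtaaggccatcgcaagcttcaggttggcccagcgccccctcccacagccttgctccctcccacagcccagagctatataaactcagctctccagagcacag

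The Cyr61 window held 1 TEAD match, on the reverse strand, 103 bases before the start, and the Srpx2 window held 1 AP-1 match 59 bases before it. The windows of Postn, Tnc, Sparc, Thbs2 and Spp1 held none of the 3 motifs. Among 32851 windows of the same length before the starts of all genes, the TEAD motif was present in 12.64%, the AP-1 motif in 6.749% and the CArG box in 1.467%. A match is a run of letters and was not tied to binding here.

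All 10 genes were well above background on all 4 arrays by their brighter probe, as were 12 of the 13 probes. The signal of Sparc, Thbs1, Spp1, Ctgf and Cyr61 exceeded the 75th percentile on every array. The 10 genes fell into groups of 6 and 4. Postn, Tnc, Sparcl1, Thbs2, Spp1 and Srpx2 spanned at least 4-fold over the arrays, against 15.3% of 30344 probes, while Sparc, Thbs1, Ctgf and Cyr61 spanned less than 2-fold. In the first group the DKO array and the array labelled WT were the lower pair for every gene, and the array labelled G2KO and the WT array of DKO the higher pair.

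**Figure D1:**
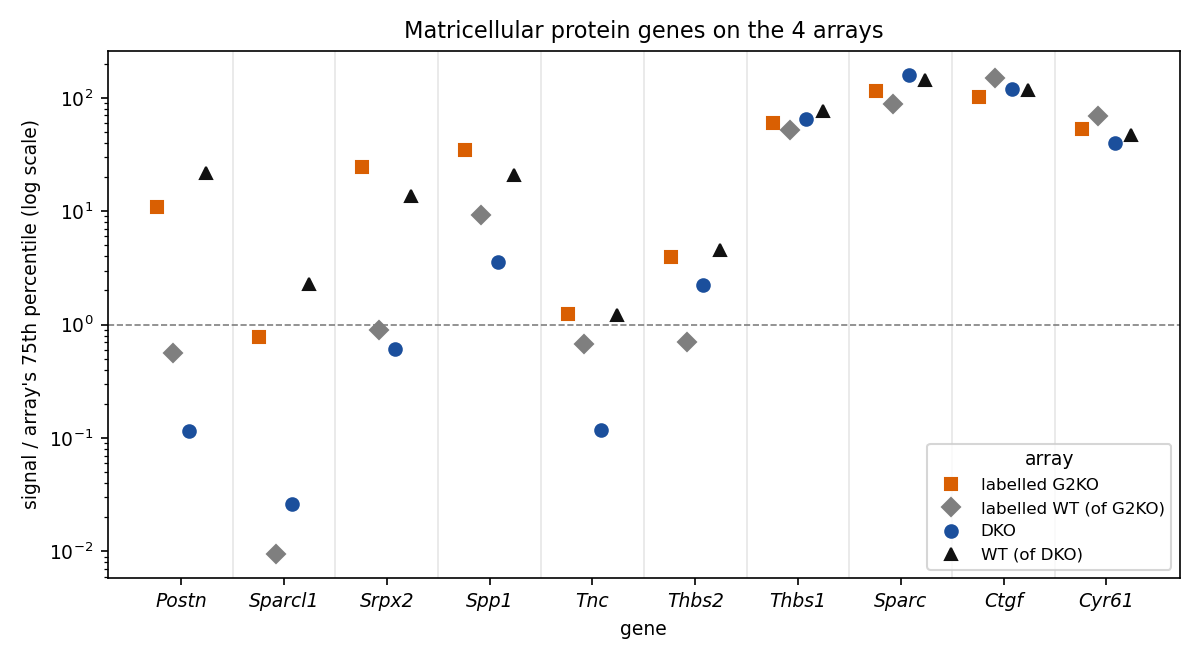
Level of each matricellular gene (signal over the 75th percentile of the array, log scale) on the 4 arrays, 1 point per array, with the dashed line at a level of 1. The first 6 genes have the array labelled G2KO and the WT array of DKO above the other arrays, and the last 4 have all arrays within 2-fold.

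Postn, which is deposited on collagen and binds integrins, had a level of 10.9 on the array labelled G2KO, 0.566 on the array labelled WT, 0.116 on the DKO array and 21.6 on the WT array of DKO (probe at chr3:54194840-54194899 of mm9). It was 186-fold lower on the DKO array than on its WT, a log2 ratio of -7.54. It was 19.2-fold higher on the array labelled G2KO than on the array labelled WT (4.26) and 38.2-fold higher on the WT array of DKO than on the array labelled WT (5.26). The WT arrays as labelled thus lay further apart for this gene than the pair labelled G2KO and WT.

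Sparcl1, an anti-adhesive relative of Sparc, had levels of 0.774 on the array labelled G2KO, 0.00952 on the array labelled WT, 0.026 on the DKO array and 2.29 on the WT array of DKO (chr5:104508149-104508208). It was 88.1-fold lower on the DKO array than on its WT (log2 ratio -6.46) and 81.3-fold higher on the array labelled G2KO than on the array labelled WT (6.35). The study lists Sparcl1 and Pdgfra as lower and Xist and Sox2 as higher in G2KO MEFs, and all of these run the other way by the labels here. The value on the array labelled WT was close to the lowest level well above background there, 0.00716, and the scanner software gave it a signal error of up to 21.6%. The WT arrays as labelled differed 240.5-fold (7.91), more than either knockout comparison. With exchanged labels the wild types would be the array labelled G2KO and the WT array of DKO, which differed 2.96-fold.

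Srpx2, known for its role in synapse formation and cell migration and as a ligand of the urokinase receptor, had levels of 24.6 on the array labelled G2KO, 0.894 on the array labelled WT, 0.611 on the DKO array and 13.6 on the WT array of DKO (chrX:130466293-130466352). It was 22.2-fold lower on the DKO array than on its WT, a log2 ratio of -4.48. It was 27.6-fold higher on the array labelled G2KO than on the array labelled WT (4.78), and the WT arrays differed by 3.93. A dimmer probe of the same gene did not stand well above background in DKO or on the array labelled WT, and its limits were larger, at least 316-fold lower in DKO against its WT and, on the array labelled G2KO, higher by at least 723-fold. Srpx2 is X-linked, and Xist, the RNA of the inactive X chromosome, stood well above background, at a level of 1.13, on the array labelled WT alone. The part of this difference in the Srpx2 values was not tested.

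Spp1, a secreted phosphoprotein that binds integrins and CD44, had levels of 34.5 on the array labelled G2KO, 9.25 on the array labelled WT, 3.57 on the DKO array and 20.8 on the WT array of DKO (chr5:104868502-104868561). It was 5.83-fold lower on the DKO array than on its WT (log2 ratio -2.54), which put it past 4-fold. On the array labelled G2KO it was 3.73-fold higher than on the array labelled WT (1.90), just inside that threshold, and quantile normalization carried it past (2.07). The WT arrays differed 2.25-fold.

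Tnc, a hexameric glycoprotein that counters adhesion to fibronectin, had levels of 1.25 on the array labelled G2KO, 0.674 on the array labelled WT, 0.117 on the DKO array and 1.22 on the WT array of DKO (chr4:63674248-63675011). The other 3 arrays lay within 1.85-fold of each other, and the DKO array lay 10.47-fold below its WT (log2 ratio -3.39). A dimmer probe gave -2.70. For this gene the other comparisons were small, 0.89 between the arrays labelled G2KO and WT and 0.86 between the WT arrays.

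Thbs2, a thrombospondin that inhibits the growth of vessels, had levels of 3.91 on the array labelled G2KO, 0.701 on the array labelled WT, 2.21 on the DKO array and 4.53 on the WT array of DKO (chr17:14804526-14805789). Here the array labelled WT was the low one. Thbs2 was 5.58-fold higher on the array labelled G2KO than on the array labelled WT (log2 ratio 2.48) and 6.46-fold higher on the WT array of DKO (2.69), whereas the DKO array lay 2.04-fold below its WT (-1.03), inside 4-fold.

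The remaining 4 genes stayed close to level. Thbs1, which releases latent TGF-beta and also inhibits vessel growth, had levels of 59.8, 51.8, 65.4 and 76.3 on the arrays labelled G2KO and WT, the DKO array and the WT array of DKO (chr2:117952585-117952644). Ctgf, an immediate target of the transcription factors YAP and TEAD, had levels of 101, 151, 121 and 116 in the same order (chr10:24318281-24318340), and the array labelled WT was the highest. Cyr61, its close relative and also a YAP target, had levels of 53.4, 69.5, 40.4 and 47.3 (chr3:145310187-145310246), again with the array labelled WT highest. Their DKO log2 ratios were -0.22, 0.06 and -0.23, and the DKO value lay between the WT values for Thbs1 and Ctgf but below both for Cyr61.

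Sparc, a collagen-binding glycoprotein abundant in fibroblasts, had levels of 114, 88.8, 160 and 145 in that order by its brighter probe (chr11:55208939-55208998). The log2 ratio was 0.14 for DKO against its WT and 0.36 for the array labelled G2KO against the array labelled WT. Its dimmer probe (chr11:55208003-55208061) went the same way but further, with 0.92 and 1.80, and differed between the WT arrays by 2.90 where the brighter probe gave 0.70. The statement that Sparc was level thus holds for the brighter probe, while the dimmer one spanned 14.1-fold.

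Comparing DKO with its WT sets 1 culture without both cyclins beside 1 wild-type culture, so genotype and culture cannot be told apart. In that comparison 5 of the 10 genes were past 4-fold and all 5 (Postn, Tnc, Sparcl1, Spp1 and Srpx2) were lower. Of all 28389 probes compared, 7.92% were past 4-fold, and 3.98% were past it in the lower direction. The median log2 ratio was -1.79 for the 10 genes and 0.03 for all probes. In the comparison of the arrays labelled G2KO and WT, 4 genes (Postn, Sparcl1, Thbs2 and Srpx2) were past 4-fold and all were higher, against 5.5% of 28279 probes in either direction and 3.58% higher, with medians of 1.39 and -0.16. These comparisons share no array. The genes were chosen with earlier results of these data known. The study lists Srpx2 as lower in DKO MEFs and Sparcl1 as lower in G2KO MEFs. The shares of all probes therefore give a scale for the counts and no test.

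Between the WT arrays as labelled, the same 4 genes as in the pair labelled G2KO and WT were past 4-fold. All were higher on the WT array of DKO, against 7.21% of 27475 probes in either direction and 4.56% higher. That comparison shares an array with each of the others. The size of the DKO log2 ratio exceeded that between the WT arrays for 4 of the 10 genes (Postn, Tnc, Spp1 and Srpx2), against 46.8% of all probes. The same was so for Tnc, Spp1, Ctgf and Srpx2 in the comparison labelled G2KO, against 46.2% of probes. Sparcl1, with the largest ratio in that comparison, was not among them. These counts rest on the WT pair as labelled. With exchanged labels the gap would be that between the array labelled G2KO and the WT array of DKO. The DKO ratio would then also exceed it for Sparcl1 (-6.46 against -1.56), Thbs2 (-1.03 against -0.21) and Cyr61 (-0.23 against 0.17). It would not for Sparc, Thbs1 and Ctgf. The share of all probes was not computed for that gap.

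**Figure D2:**
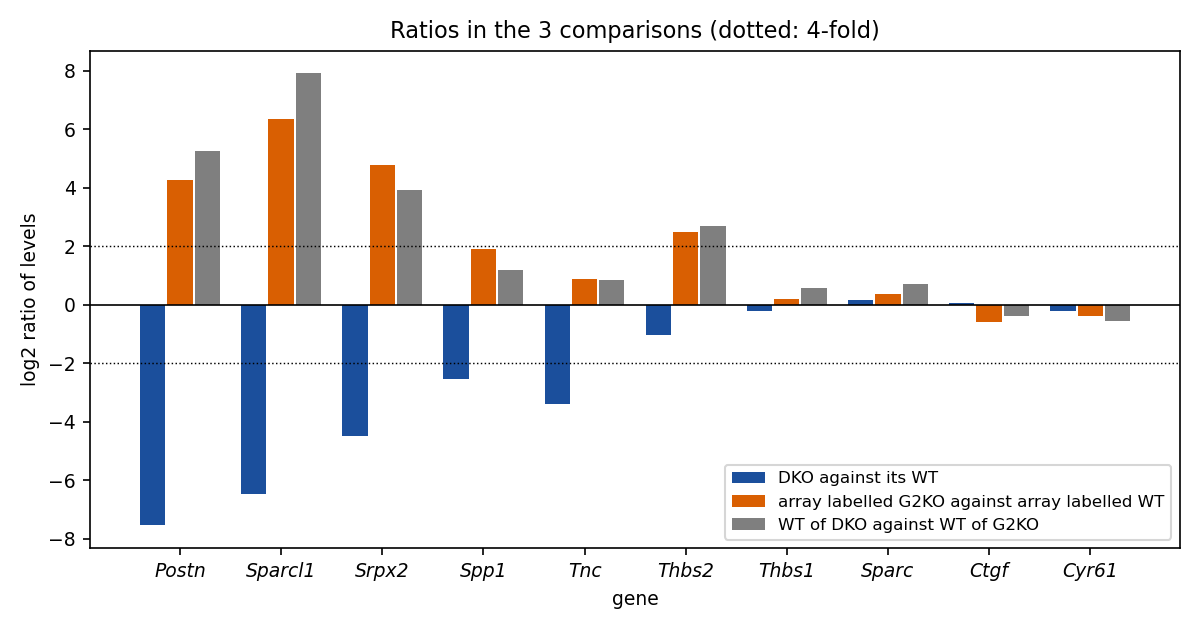
Log2 ratio of levels for each matricellular gene in the 3 comparisons, as bars from 0, with dotted lines at 4-fold. The DKO bars of the first 6 genes point down and their other bars up, and the bars of Thbs1, Sparc, Ctgf and Cyr61 stay within 1 of 0.

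Against the array labelled WT, the DKO array had 2 genes past 4-fold, both lower, where 9.38% of 29590 probes were past it and 3.7% were lower. These were Postn (4.87-fold lower) and Tnc (5.78-fold lower), so they were also the genes for which the DKO array lay at least 4-fold below each of the other 3 arrays, as 1.15% of 30344 probes did. With normexp background correction, and at a threshold of 10-fold, that count of 2 became 0. Spp1 was 2.59-fold lower on the DKO array than on the array labelled WT and Srpx2 1.46-fold lower, whereas Sparcl1 was 2.73-fold and Thbs2 3.16-fold higher. The array labelled G2KO had 0 of the 10 genes past 4-fold from the WT array of DKO, where 2.18% of 26603 probes were; the largest difference was that of Sparcl1, 2.96-fold lower.

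Sparcl1 and Spp1 lie 360 kb apart by their probes on chromosome 5 (mm9), at either end of the stretch that holds the SIBLING genes, which encode secreted phosphoproteins of bone and teeth. Of the 7 genes from Nudt9 to Pkd2 with a DKO ratio, 3 were past 4-fold and lower (Sparcl1, Dmp1 and Spp1) and 4 were within. Of all probes 7.92% were past 4-fold in that comparison, and 3.98% were past it in the lower direction. Sparcl1 and Spp1 are matricellular genes already counted above, so Dmp1 was the only gene added. Dmp1, dentin matrix protein, had levels of 0.55 on the array labelled G2KO, 0.025 on the array labelled WT and 0.6 on the WT array of DKO, had no signal well above background in DKO, and was there at least 82.2-fold lower than in its WT. The genes flanking the row were within 4-fold in the DKO comparison, with the same pair of arrays higher, Nudt9 at -0.99 and Pkd2 at -0.995. Mepe, inside the row, was level at 0.15, Dspp stood above background in DKO alone, and Ibsp, bone sialoprotein, on none.

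**Figure D3:**
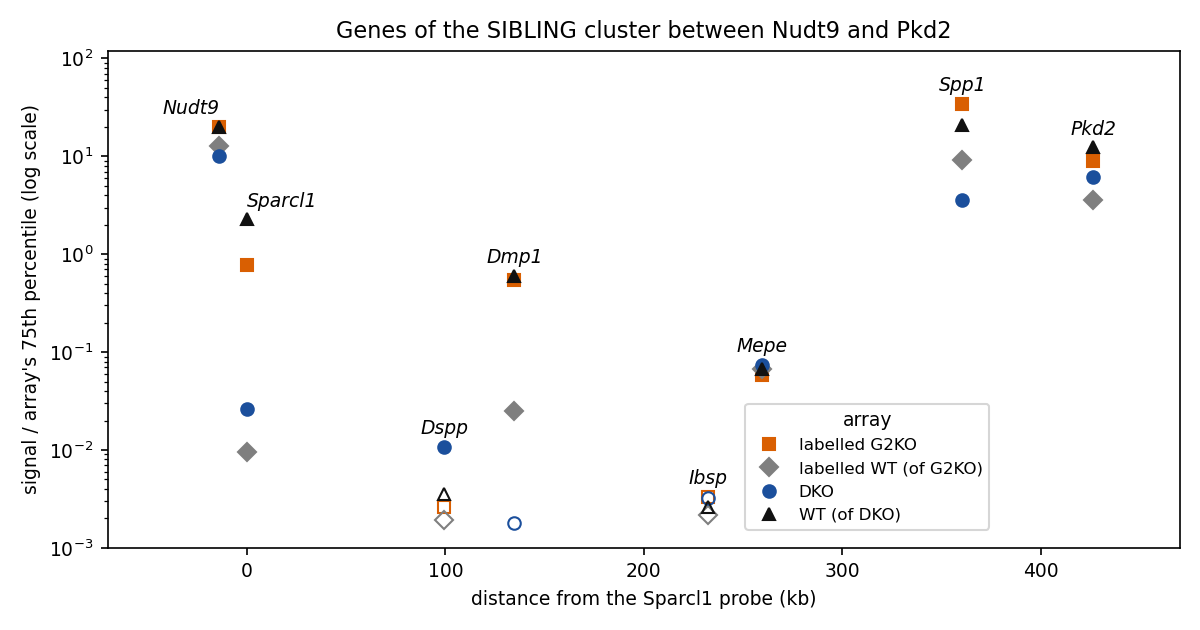
Levels (log scale) of the 8 genes of the SIBLING cluster and its flanks on the 4 arrays, by distance of each probe from the Sparcl1 probe in kb; open symbols are values not well above background. Sparcl1, Dmp1 and Spp1 have the array labelled G2KO and the WT array of DKO on top, as do the flanking genes Nudt9 and Pkd2 by smaller ratios, while Mepe, between Dmp1 and Spp1, has all arrays together.

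For the gene lists below, the shares of all probes past 4-fold were 7.92% for DKO and 5.5% for the comparison labelled G2KO. Relatives of the matricellular genes were compared next. Of 22 such genes, 17 had a DKO ratio, and 0 were past 4-fold higher and 5 lower, with a median of -0.63. They were Tnn, tenascin N (at least 139-fold lower), Dmp1, Wisp2, a CCN protein without the C-terminal domain (-5.99), Smoc2, a Sparc relative (-5.37), and Tgfbi, a relative of periostin (-5.19). On the array labelled G2KO the same 5 genes and Srpx, the paralogue of Srpx2, were past 4-fold higher, and 0 lower. The CCN genes Nov (0.89) and Wisp1 (0.33) stayed within 4-fold in the DKO comparison, as did Thbs3 (-1.53) and Comp (-0.61) among the thrombospondins.

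Receptors of the matricellular proteins had 1 gene higher and 5 lower of 17 in the DKO comparison. Egfr, which tenascin C can engage, was 6.66-fold higher on the DKO array than on its WT. Itga8, which encodes an integrin subunit for Spp1 and Tnc, was at least 357-fold lower there and Itga9, a further subunit for Tnc and Spp1, 17-fold lower, while Itga4 was at least 11-fold lower. The others were Cd44, a receptor of osteopontin, at -2.53 and the proteoglycan Sdc4 at -2.44. The subunits Itgav (-0.60), Itgb1 (-0.33) and Itgb5 (-0.07) were within 4-fold. On the array labelled G2KO only Itgb3, the partner of the alpha v subunit, was past 4-fold, 7.38-fold higher.

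YAP and TEAD targets other than Ctgf and Cyr61 mostly stayed within 4-fold, as most probes did. In the DKO comparison 1 of 11 was past 4-fold, against 7.92% of all probes. This was Nt5e, the ecto-5′-nucleotidase, at 4.90, and the median of the list was -0.14. Ankrd1 was at -0.94, Amotl2 at -0.35 and Yap1 itself at -0.80. On the array labelled G2KO 0 of 11 were past 4-fold and the sizes reached at most 0.88 (F3, at -0.88). Of 15 TGF-beta pathway genes 1 was lower in DKO, Ltbp2, which encodes a matrix protein of the latent TGF-beta binding family, at -2.55. Ltbp2 was 155-fold and the ligand gene Tgfb3 6.82-fold higher on the array labelled G2KO than on the array labelled WT.

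**Figure D4:**
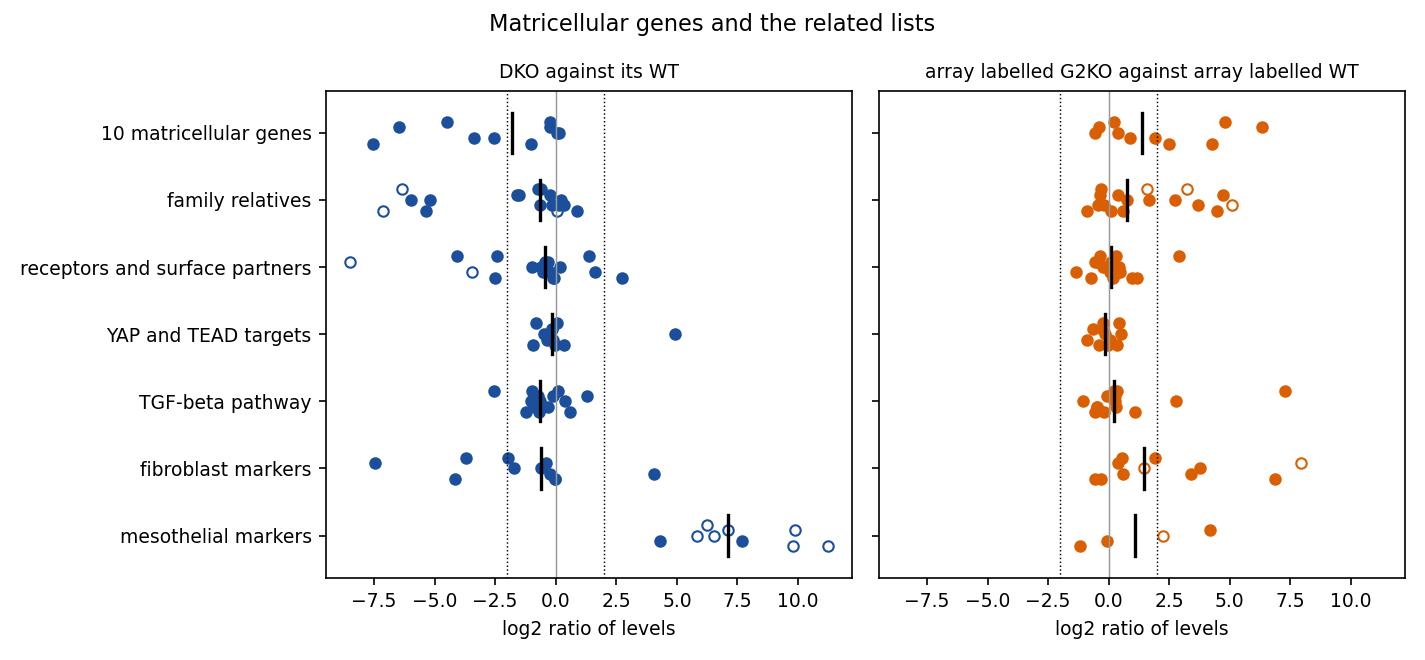
Log2 ratio of every gene with a ratio in 6 lists and of the 10 matricellular genes for DKO against its WT and for the array labelled G2KO against the array labelled WT; black bars are medians, open circles are limits and dotted lines mark 4-fold. In the DKO comparison 5 matricellular genes and 5 of their relatives lie beyond the lower line and all 9 mesothelial markers beyond the upper one.

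Markers of other cell types also differed between the arrays, and not all followed the pattern of the matricellular genes. All 9 mesothelial markers (such as Wt1, Msln and Krt18) were past 4-fold higher on the DKO array than on its WT, with a median log2 ratio of 7.12. They were above background for 9 of 9 on the DKO array and for 2 to 4 of 9 on the others. Their summed level was 148 on the DKO array, most of it from Msln (100), and 0.584 to 1.58 on the others. Fibroblast markers had 1 higher (Dcn, 4.05) and 3 lower (Pdgfra at -7.46, Thy1 at -4.17 and Pdgfrb at -3.72) of 11 in that comparison, while Col1a1, Col1a2 and Vim stayed within 0.25 of 0. The summed fibroblast level was 310 on the DKO array and 395 on its WT. Most of it came from Col1a2 (142 and 169) and Vim (60.55 and 62.49). The sums thus hardly reflect dimmer markers such as Pdgfra (0.03 and 5.22). Of the defining fibroblast markers Dpt was above background on none of the arrays and Pdgfra and Lum on all but the array labelled WT. Of 4 smooth muscle markers with a ratio, Acta2 and Tagln were past 4-fold lower, while Cnn1 stood at 0.17 and Myh11 at least 2.64-fold higher; the summed levels, 42.7 on the DKO array and 266 on its WT, came mostly from Acta2 and Tagln. In MEF cultures fewer cells of a type and less RNA per cell cannot be told apart, and the part of these markers in the matricellular ratios was not tested.

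Other markers moved with the pair labelled G2KO and WT. Of 5 neural progenitor markers 2 were past 4-fold: Sox2 and Nes were at least 359-fold and 14.3-fold higher on the array labelled WT than on the array labelled G2KO, with a summed level of the 5 markers of 30.5 on the former and 1.28 to 2.12 on the others, most of it from Nes. Sox1 was level (0.10), and Pax6 was above background on the array labelled G2KO and not on the array labelled WT. There 4 of 11 fibroblast markers (Pdgfra, Thy1, Col3a1 and Dcn) were past 4-fold higher on the array labelled G2KO. The summed fibroblast levels were 323 and 224, again mostly from Col1a2 and Vim. Of 4 mesothelial markers with a ratio there, the array labelled G2KO had Krt19 higher by 18.2-fold and Krt18 by at least 4.73-fold. Msln was 2.29-fold lower on that array and Krt8 was level (-0.07). The summed level of the 9 mesothelial markers was 1.24 on the array labelled G2KO and 1.58 on the array labelled WT. Macrophage markers had 0 of 6 and endothelial markers 0 of 3 past 4-fold in the DKO comparison and 0 of 5 and 0 of 3 in that labelled G2KO. Skeletal markers had 2 of 6 lower in DKO, Col2a1 (-7.13) and Sox9 (-2.64), and Sox9 was higher on the array labelled G2KO (4.24). Of the bone genes Ibsp was not well above background on any array, while Runx2 and Bglap1 stood above it on all 4.

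The genes with the most similar pattern over the 4 arrays were found for the 6 genes that spanned at least 4-fold, as the smallest root mean square distance of centred log2 levels among 3495 genes. For Postn they were Kcnmb4, a potassium channel subunit (0.42), and Dmp1 (0.43). For Sparcl1 they were Sgcd, delta-sarcoglycan (0.31), and Mfap4, a microfibril-associated protein (0.42), and for Srpx2 the nearest was the CDK inhibitor gene Cdkn1c (0.22). Tnc had Asphd2 (0.08) and Bcat1 (0.10), Thbs2 had Cd302 (0.06) and 5430435G22Rik (0.10), and Spp1 had Xkr6 (0.07) and Errfi1 (0.08). Among the members themselves the closest were Tnc and Spp1, at 0.48. With 4 arrays these distances are a description only.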

How the data were processed

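Total RNA was labelled with Cy3 for single-colour Agilent mouse arrays. The authors deposited spot intensity values from Agilent Feature Extraction (10.7.3.1 per the file headers, 10.5.1.1 per the processing notes), with background corrected on each array and without scaling across arrays. Each array held 43020 non-control spots, of which 107 to 140 flagged as outliers were left out. Intensities were divided by the 75th percentile of all non-control spots, which lay at signals of 1586 to 2234, and log2 values of spots of a probe were averaged. The brightest probe stood for a gene. A probe had a ratio if at least 1 array of the pair showed it well above background. Where it was dim on the other, the larger of its own level and the lowest level there well above background (0.0066 to 0.0103) was taken, and the ratio is a limit, written as at least. Ratios past 4-fold were counted, with no test, since each label had 1 array. The ratio calculation was run on simulated arrays, copies of a single array with added noise and known changes in probes well above background. That run covered neither the rule for limits nor the spread between cultures. The members, gene lists and motifs were chosen with earlier results of these data known. Genes named from lists were those with the largest ratios (up to 4 per list and comparison) and further list genes were chosen after their values were seen. Probe positions are mm9 as deposited, and which exon or UTR a probe lies in was not analysed here. The Methods name dye-swapped arrays for G2KO MEFs, while these files are single-colour. The deposited value table holds the same intensities (largest log2 difference 0). Alternatives were quantile normalization, median scaling, no scaling, normexp (limma 3.58.1, R 4.3.3, offset 50), other probe and floor rules, other thresholds and other WT arrays. Python 3.11.15, numpy 2.4.6 and pandas 2.3.3 were used. The number of arrays limits the precision. Values of some named genes are not reported here.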

Additional observations from a re-analysis of the deposited data

Results flagged for a closer look

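For 8 of the 10 genes the ratio had opposite signs in the DKO comparison and in that of the arrays labelled G2KO and WT. Among them were the 6 that spanned at least 4-fold. Each label had 1 array, and the difference between comparisons was not tested. The signs rest on the labels of the pair labelled G2KO and WT, which could not be settled here. By these labels Xist, Sox2, Sparcl1 and Pdgfra run opposite to the list of the study. With exchanged labels the 8 genes with opposite signs would have the same sign in both comparisons. The log2 ratios in these comparisons were -7.54 and 4.26 for Postn, -6.46 and 6.35 for Sparcl1, and -4.48 and 4.78 for Srpx2. They were -2.54 and 1.90 for Spp1, -3.39 and 0.89 for Tnc, and -1.03 and 2.48 for Thbs2. The other two were within 4-fold in both, Thbs1 at -0.22 and 0.21 and Ctgf at 0.06 and -0.58. Each of the 6 genes that spanned at least 4-fold was lower on the array labelled WT than on the WT array of DKO.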

How the results depend on the processing

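Quantile normalization, median scaling, no scaling, normexp, the median over probes, no floor and a filter on both arrays gave 210 gene ratios, of which 208 kept their side of 4-fold. The other 2 were Spp1 on the array labelled G2KO, which passed 4-fold with quantile normalization (2.07) and without scaling (2.39). Part of this agreement was fixed in advance. No floor and the filter could change no ratio, since every gene was well above background on every array by its brighter probe. The median over probes could change only the 3 genes with 2 probes. In 3 of the 210 the sign changed, all for ratios within 4-fold: Ctgf in DKO (-0.02 without scaling) and Cyr61 on the array labelled G2KO (0.04 with quantile normalization, 0.11 without scaling). No scaling shifted the median of all probes by 0.50 in the comparison labelled G2KO and 0.25 between the WT arrays, median scaling shifted the latter by -0.18 and normexp shifted the DKO comparison by 0.11. With the WT array of the other comparison, the genes past 4-fold went from 5 to 2 for DKO and from 4 to 0 for the array labelled G2KO. Signs changed there in 4 DKO ratios (Sparcl1 1.45, Thbs2 1.66, Thbs1 0.34 and Ctgf -0.32) and in 6 on the array labelled G2KO (Postn -0.99, Sparcl1 -1.56, Thbs2 -0.21, Sparc -0.34, Thbs1 -0.35 and Cyr61 0.17). Of these, Sparcl1 in DKO and Postn, Sparcl1 and Thbs2 labelled G2KO had been past 4-fold. With the mean of the WT arrays, the count labelled G2KO was 2 and that of DKO 4, and signs changed for Thbs2 (0.31), Thbs1 (0.06) and Ctgf (-0.13) in DKO and for Thbs1 (-0.07) labelled G2KO. The 2 genes at least 4-fold below all other arrays in DKO became 0 with normexp and 0 at a threshold of 10-fold; the cause under normexp was not tested. No paired analysis was possible because each label had 1 array, and leaving out a replicate was not possible for the same reason. Genes close to background, such as Sparcl1 on the array labelled WT, have the least certain ratios.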
